A study of Mus musculus with 16 samples.

Results

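Striatum of Sapap3 knockout mice whose astrocytes carried the activated receptor hM4Di was compared with striatum of control wild-type mice, gene by gene, in bulk RNA sequencing. The comparison takes the 4 libraries labelled KO_hM4D and the 4 labelled WT_tdT, 8 of the 16 libraries of the series, and it asks what differs from control wild type in knockouts after astrocyte Gi activation. KO_hM4D mice were knockouts of Sapap3, whose current symbol is Dlgap3, and an adeno-associated virus (AAV) carrying hM4Di was injected into their striatum. WT_tdT mice were wild type and received an AAV carrying the fluorescent protein tdTomato in the same place. All mice of both groups received DCZ (deschloroclozapine), the agonist of hM4Di, so the wild-type controls also carry a virus and the drug, and the groups differ in genotype and in the vector's cargo together. The effects of genotype and cargo cannot be told apart within this comparison. Sex-linked transcripts, described below, also differed between the groups and are partly confounded with both. The viral promoter, the allele of the knockout, and the age, sex and strain of the mice were not given in the sources used here.

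Dlgap3 encodes a scaffold protein that links the PSD-95 complex to Shank proteins at excitatory synapses, and in striatum it is concentrated where cortical axons contact projection neurons. Mice without it groom compulsively and are used as a model of obsessive-compulsive behaviour. hM4Di is an engineered muscarinic receptor that couples to Gi proteins, which inhibit adenylyl cyclase, and it does not respond to acetylcholine. In astrocytes, the glial cells that contact synapses and blood vessels, injury and inflammation are known to induce a reactive programme that includes Gfap, Vim, Serpina3n and C4b. Neuronal activity is known to induce the immediate early genes, among them Fos and Egr2, within minutes.

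Libraries held 142260564 to 175318609 counts in KO_hM4D and 131828601 to 180655067 counts in WT_tdT, and 20825 genes passed the filter on low counts. Markers of striatal projection neurons were present in all 8 libraries, with a mean log2 level over 25 genes of 7.45 to 7.77 in KO_hM4D and 7.51 to 8.17 in WT_tdT. The groups differed in sex-linked transcripts. Xist, the RNA of the inactive X chromosome, stood at 30.5 to 46.8 CPM (counts scaled to library size) in KO_hM4D, and the summed Y-linked genes at 0.011 to 0.095 CPM. WT_tdT 1 had the same pattern (Xist 34.1 CPM, Y-linked 0.051 CPM). WT_tdT 2 and 3 had largely the opposite one, with Y-linked sums of 148 and 145 CPM and some Xist, at 0.618 and 1.95 CPM. WT_tdT 4 held both, with Xist at 26.9 CPM and Y-linked genes at 20.4 CPM, and whether it stands for 1 mouse is uncertain. All 4 KO_hM4D libraries were thus alike and 1 of 4 WT_tdT libraries matched them. The main counts are therefore also given with WT_tdT 1 as the only control, with WT_tdT 2 and 3 as controls, and without mixed libraries. They are further given with each library's Xist or Y-linked level as a covariate over all 16 libraries. Mixed libraries held both kinds of transcript at 5% or more of the highest library. These were WT_tdT 4 and, outside the comparison but in the main fit, KO_tdT 3 (knockout with tdTomato) and WT_hM4D 2 and 4 (wild type with hM4Di). WT_tdT 3, with Xist at 4.17%, was not counted as mixed.

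The targeted gene separated the groups. Dlgap3 (ENSMUSG00000042388, GRCm38 chr4:127169204-127237022) had 167, 165, 153 and 153 CPM in KO_hM4D 1 to 4, against 437, 294, 369 and 401 CPM in WT_tdT 1 to 4. No knockout library came near a wild-type library. The log2 change was -1.23 (SE 0.10, adjusted p = 1.35e-05, from edgeR's quasi-likelihood test with Benjamini-Hochberg adjustment over all genes tested), and reads were still counted to the gene in knockouts. Chrm4, the mouse gene of the M4 muscarinic receptor that resembles hM4Di, had 85.0, 65.2, 85.1 and 70.2 CPM in KO_hM4D 1 to 4, against 63.2, 53.6, 49.0 and 62.8 CPM in WT_tdT 1 to 4. Every KO_hM4D library lay above every WT_tdT library, but the log2 change of 0.42 (SE 0.15, adjusted p = 0.132 by edgeR) did not pass the test. Whether viral receptor reads were counted to Chrm4 was not tested. The other scaffolds of the family were not called, and Dlgap4, the nearest to a call, changed by 0.13 (SE 0.11, adjusted p = 0.516 by edgeR).

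In total 407 genes, 1.95% of those tested, were called at an adjusted p under 0.05, and 4273 (20.5%) had an unadjusted p under 0.05, the share against which list counts at that threshold are to be read. Of these 197 were higher in KO_hM4D (0.946% of genes tested) and 210 were lower (1.01%). Most changes were small. The median log2 change was 0.35 among the called genes that rose and -0.45 among those that fell, and 18 rose and 37 fell by at least 1 on the log2 scale. All 4 libraries of KO_hM4D lay on 1 side of all 4 WT_tdT libraries for 191 of the genes that rose and 206 of those that fell. Over all genes tested such separation was found for 14.0%, with KO_hM4D above for 6.88% and below for 7.08%. The calls rest on these same libraries, so the separation of called genes is no further support for them. The exons of the genes that rose summed to a median of 5433 bases, those of the genes that fell to 3723 bases, and those of all genes tested to 3541 bases. With upper-quartile scaling the split was 149 higher and 316 lower. On chromosome X 5 genes were called higher and 14 lower, of 755 tested there.

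These counts changed with the library left out, least for KO_hM4D 3. Leaving out KO_hM4D 3 gave 311 calls, and leaving out any other single library gave fewer: 61 without KO_hM4D 1, 13 without KO_hM4D 2 and 20 without KO_hM4D 4. Among controls it gave 90 calls without WT_tdT 1, 27 without WT_tdT 2, 31 without WT_tdT 3 and 112 without WT_tdT 4. In all 8 of those fits 8 genes remained called: Dlgap3, the immediate early genes Fos, Cyr61, Btg2, Junb and Dusp1, the splicing factor gene Srsf5 and, as the 1 that rose, Serpina3n. With WT_tdT 1 as the only control 1 gene was called, with WT_tdT 2 and 3 alone 13 were called, and without the libraries of mixed sex transcripts 42 were called. With the Xist or the Y-linked level as a covariate, 966 and 979 genes were called, of which 330 and 359 were among the 407. DESeq2, another count test, called 1428 genes, of which 396 were among the 407. Of the 51 named calls that the naming rule chose, 29, 40, 15 and 38 were lost without KO_hM4D 1, 2, 3 and 4, and 23, 35, 36 and 27 without WT_tdT 1, 2, 3 and 4, while each kept its direction.

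**Figure D1:**
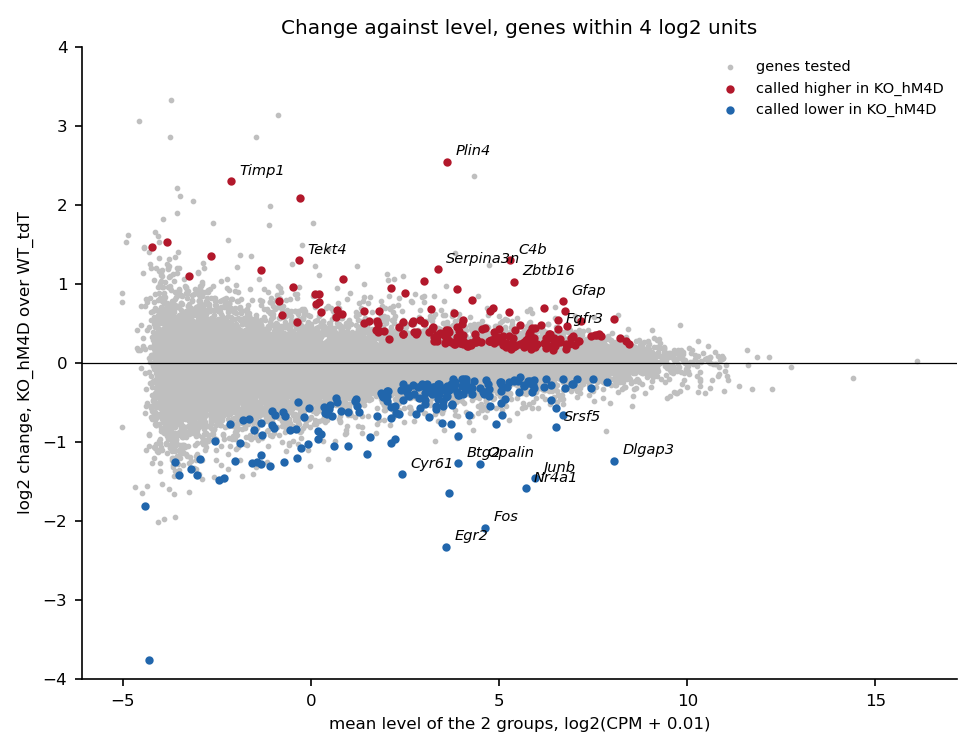
Log2 change of KO_hM4D over WT_tdT (vertical axis) against the mean level of both groups as log2(CPM + 0.01) (horizontal axis) for the genes tested, with 197 called higher in red and 210 called lower in blue, less those beyond 4 log2 units, which are not drawn. Plin4 stands highest among the labelled genes that rose, at 2.55, and Egr2 and Fos stand lowest among those that fell, at -2.32 and -2.08.

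Immediate early genes, which neurons and glia transcribe shortly after stimulation, held the most calls of any list. Of 42 tested 15 were called lower in KO_hM4D and 0 higher, beside 1.01% and 0.946% of all genes tested. A negative change was found for 36, and the median log2 change was -0.52, beside -0.0014 over all genes tested. Fos, a subunit of the transcription factor AP-1 (GRCm38 chr12:85473890-85477273), had 7.95, 9.70, 12.5 and 7.56 CPM in KO_hM4D 1 to 4, against 24.8, 38.3, 47.8 and 48.9 CPM in WT_tdT 1 to 4. The groups did not overlap, and WT_tdT 1 was the lowest control. The log2 change of Fos was -2.08 (SE 0.25, adjusted p = 0.00332 by edgeR).

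Egr2, a zinc finger transcription factor (GRCm38 chr10:67535475-67542188), had the largest fall among the called members. It had 3.51, 4.78, 4.32 and 3.38 CPM in KO_hM4D 1 to 4, against 15.1, 16.2, 17.8 and 31.1 CPM in WT_tdT 1 to 4. The groups lay far apart, with WT_tdT 4 above the other controls, and the log2 change was -2.32 (SE 0.39, adjusted p = 0.0155 by edgeR). Without KO_hM4D 2 or KO_hM4D 4 the call was lost (highest adjusted p = 0.0743 by edgeR). Junb, which pairs with Fos in AP-1, had 31.3, 36.4, 33.7 and 30.8 CPM in KO_hM4D 1 to 4, against 76.6, 83.9, 90.1 and 113 CPM in WT_tdT 1 to 4. The log2 change of -1.46 (SE 0.20, adjusted p = 0.00811 by edgeR) again came with no overlap.

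Btg2, an antiproliferative gene induced by growth factors and p53 (GRCm38 chr1:134075170-134079120), had 7.92, 8.40, 11.2 and 8.02 CPM in KO_hM4D 1 to 4, against 13.4, 24.2, 26.7 and 21 CPM in WT_tdT 1 to 4. KO_hM4D 3 and WT_tdT 1 came nearest to each other without meeting, and the log2 change was -1.26 (SE 0.16, adjusted p = 0.00410 by edgeR). Cyr61, a secreted matricellular protein, had 2.75, 2.73, 3.48 and 2.70 CPM in KO_hM4D 1 to 4, against 4.61, 8.45, 9.45 and 8.40 CPM in WT_tdT 1 to 4. WT_tdT 1 again lay nearest to KO_hM4D, and the log2 change was -1.40 (SE 0.18, adjusted p = 0.00410 by edgeR). Dusp1, a phosphatase that switches off MAP kinases (GRCm38 chr17:26505590-26562128), had 11.7, 11.3, 10.2 and 8.25 CPM in KO_hM4D 1 to 4, against 16.3, 18.6, 23.5 and 20.4 CPM in WT_tdT 1 to 4. Its log2 change was -0.93 (SE 0.13, adjusted p = 0.00813 by edgeR), with no overlap.

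The other 9 members that fell changed by -0.40 to -1.64. The orphan nuclear receptor gene Nr4a1 averaged 26.1 ± 3.47 CPM in KO_hM4D and 78.2 ± 17.4 CPM in WT_tdT (SD, n = 4 each), a log2 change of -1.58 (SE 0.30, adjusted p = 0.0233 by edgeR). Npas4, a transcription factor gene induced by calcium entry into neurons, averaged 6.21 ± 1.90 CPM in KO_hM4D and 19.4 ± 5.23 CPM in WT_tdT, a log2 change of -1.64 (SE 0.38, adjusted p = 0.0405 by edgeR). Atf3 (-1.20, SE 0.27), Apold1 (-1.01, SE 0.17), Gadd45g (-0.68, SE 0.16), Sik1 (-0.66, SE 0.14), Egr1 (-0.66, SE 0.13), Gadd45b (-0.58, SE 0.09) and Csrnp1 (-0.40, SE 0.09) made up the rest. Arc, which organises the trafficking of AMPA receptors and is in the separate list of activity genes of projection neurons, had 164, 228, 131 and 125 CPM in KO_hM4D 1 to 4, against 244, 263, 338 and 331 CPM in WT_tdT 1 to 4. The groups did not overlap, but its log2 change of -0.86 (SE 0.24, adjusted p = 0.0682 by edgeR) did not pass the test.

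The number of immediate early genes called lower was 8 without KO_hM4D 1, 5 without KO_hM4D 2, 12 without KO_hM4D 3 and 6 without KO_hM4D 4. It was 10 without WT_tdT 1 and 8 without each of WT_tdT 2, 3 and 4. With the Xist level as a covariate it was 17, and with the Y-linked level also 17. Against WT_tdT 1 alone it was 0 with a median log2 change of -0.36, against WT_tdT 2 and 3 it was 4 with a median of -0.34, and without the mixed libraries it was 5 with a median of -0.42. The mean log2 level of the list was 3.55, 3.74, 3.75 and 3.61 in KO_hM4D 1 to 4, against 4.01, 4.15, 4.30 and 4.46 in WT_tdT 1 to 4. It was 3.57 to 3.94 in KO_tdT, the knockouts with control virus, and 3.55 to 3.74 in WT_hM4D, the wild types with hM4Di, so WT_tdT stood above the other 3 groups. KO_tdT and WT_hM4D are set against the same WT_tdT libraries here.

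Promoter windows of 3 of these genes are shown because they hold a motif through which activity-induced transcription is known to run. The windows are from RefSeq on GRCm38.p6, 300 bases that end just past the start, 5′ to 3′ on the gene's strand. Btg2 (chr1:134079106-134079405, minus strand) and Dusp1 (chr17:26508423-26508722, minus strand) carry the cyclic AMP response element TGACGTCA, in capitals. Egr2 (chr10:67537316-67537615, plus strand, 1 of several starts) carries a CArG box, the core of the serum response element, in capitals.
Btg2: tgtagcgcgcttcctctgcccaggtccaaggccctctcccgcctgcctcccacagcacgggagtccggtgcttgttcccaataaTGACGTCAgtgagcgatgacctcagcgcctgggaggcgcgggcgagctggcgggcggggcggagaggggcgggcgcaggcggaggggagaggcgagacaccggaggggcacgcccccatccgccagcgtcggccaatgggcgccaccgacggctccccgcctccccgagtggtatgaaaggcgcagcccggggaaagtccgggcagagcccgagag
Dusp1: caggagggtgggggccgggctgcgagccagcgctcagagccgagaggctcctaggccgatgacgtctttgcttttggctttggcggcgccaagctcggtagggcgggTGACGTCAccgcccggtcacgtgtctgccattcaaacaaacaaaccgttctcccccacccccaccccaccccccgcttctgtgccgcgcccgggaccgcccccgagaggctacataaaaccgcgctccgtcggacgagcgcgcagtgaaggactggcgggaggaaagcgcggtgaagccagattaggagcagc
Egr2: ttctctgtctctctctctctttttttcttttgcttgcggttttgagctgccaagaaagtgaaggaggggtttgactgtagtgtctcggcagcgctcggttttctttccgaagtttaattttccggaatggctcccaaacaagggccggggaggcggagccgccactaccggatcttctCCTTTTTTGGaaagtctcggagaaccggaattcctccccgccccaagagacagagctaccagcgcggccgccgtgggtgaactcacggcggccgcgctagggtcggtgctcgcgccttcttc
Both strands were searched, and the motifs did not overlap in these windows. Of the 12 called immediate early genes with a window, 2 held TGACGTCA and 1 held a CArG box, against 3 and 2 of the 33 tested members with a window. Of all 32851 mouse promoter windows, 1.79% held TGACGTCA and 1.63% a CArG box. The windows of Fos, Junb and Nr4a1 held neither.

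**Figure D2:**
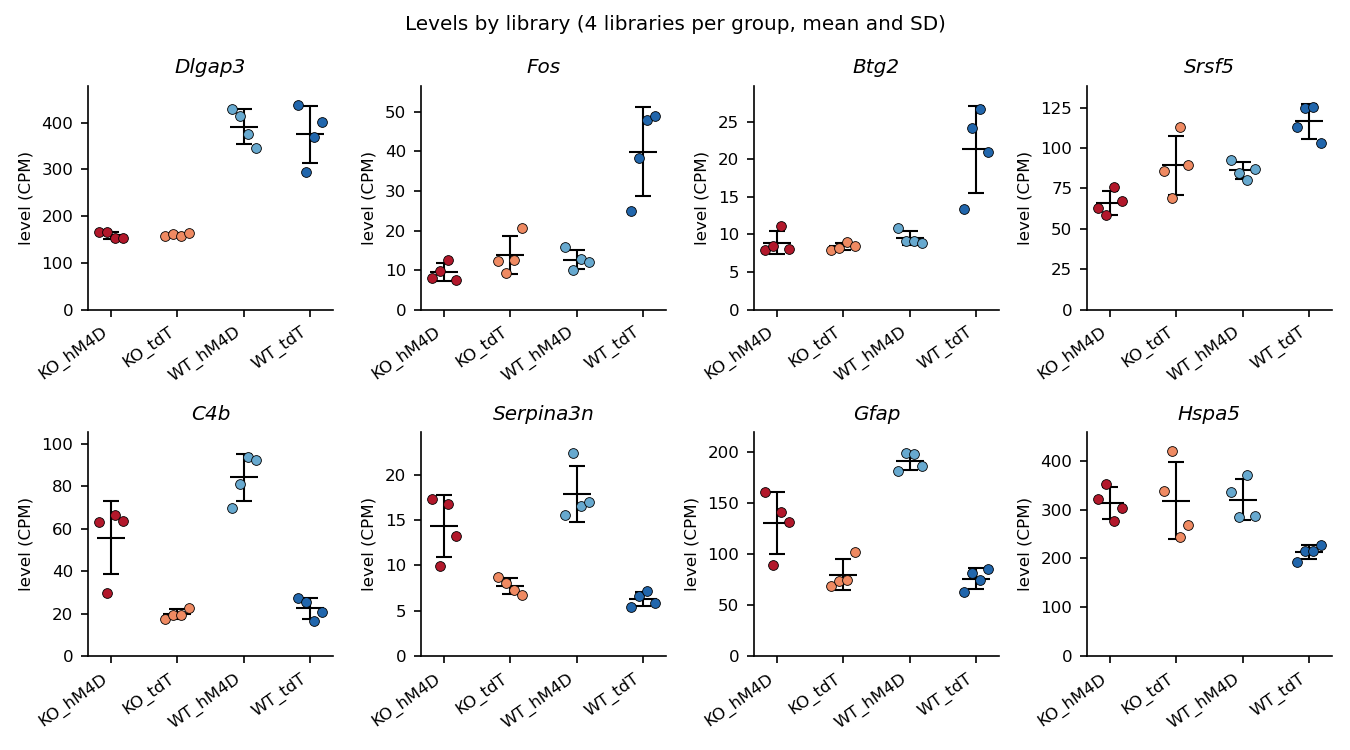
Levels in CPM (vertical axes, from 0) of 8 genes in each library of KO_hM4D, KO_tdT, WT_hM4D and WT_tdT, with points for the 4 libraries of a group and a bar for mean and SD. Fos sits at 24.8 to 48.9 CPM in WT_tdT and at 7.56 to 12.5 CPM in KO_hM4D, C4b at 29.9 to 66.5 CPM in KO_hM4D and 16.7 to 27.6 CPM in WT_tdT, with KO_hM4D 2 the lowest of its group for C4b, Serpina3n and Gfap.

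A group of reactive astrocyte genes was higher in KO_hM4D. Of 36 tested 5 were called higher (Serpina3n, C4b, Timp1, Vim and Gfap) and 0 lower, beside 0.946% and 1.01% of all genes tested. A positive change was found for 22, and the median log2 change was 0.12. Serpina3n, a secreted protease inhibitor (GRCm38 chr12:104406729-104414329), had 17.3, 9.95, 16.8 and 13.3 CPM in KO_hM4D 1 to 4, against 5.46, 6.63, 7.17 and 5.90 CPM in WT_tdT 1 to 4. KO_hM4D 2 was the lowest of its group and still above all controls. The log2 change was 1.19 (SE 0.16, adjusted p = 0.00521 by edgeR), and Serpina3n was the 1 gene that rose in all 8 fits that left out a library.

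C4b, a component of the classical complement pathway (GRCm38 chr17:34728380-34743882), had 63.3, 29.9, 66.5 and 63.4 CPM in KO_hM4D 1 to 4, against 27.6, 25.7, 16.7 and 20.6 CPM in WT_tdT 1 to 4. KO_hM4D 2 lay just above the highest control and far below the rest of its group. The log2 change was 1.30 (SE 0.21, adjusted p = 0.0142 by edgeR), and the call was lost without KO_hM4D 4 (adjusted p = 0.0525 by edgeR). C4b was also the 1 gene called higher between the knockout groups (0.0048% of genes tested), at a log2 change of 1.5 in KO_hM4D over KO_tdT (SE 0.21, adjusted p = 0.0448 by edgeR). Beside it C2, whose product joins the C4 fragment in the C3 convertase, rose by 0.79 (SE 0.20, adjusted p = 0.0496 by edgeR) at a level under 1 CPM. C4b and C2 were the 2 called of 17 complement components, beside 1.95% called over all genes tested. The call of C2 was lost in each fit that left out 1 library, and with the Xist or the Y-linked level as a covariate.

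Gfap, the intermediate filament protein of astrocytes (GRCm38 chr11:102887336-102900912), had 161, 88.9, 141 and 132 CPM in KO_hM4D 1 to 4, against 62.5, 82.0, 74.8 and 85.0 CPM in WT_tdT 1 to 4. Again KO_hM4D 2 lay close to the controls, and the log2 change was 0.78 (SE 0.15, adjusted p = 0.0241 by edgeR). The call of Gfap was kept in 3 of the 8 fits that left out 1 library, and it was lost with the Xist level as a covariate. Vim, another intermediate filament gene, averaged 18.8 ± 2.58 CPM in KO_hM4D and 13.3 ± 0.639 CPM in WT_tdT (SD, n = 4 each), a log2 change of 0.50 (SE 0.09, adjusted p = 0.0233 by edgeR). Timp1, an inhibitor of matrix metalloproteinases, rose by 2.30 (SE 0.37, adjusted p = 0.0142 by edgeR) but stood at 0.237 to 0.532 CPM in KO_hM4D and 0.038 to 0.117 CPM in WT_tdT. Timp1 lies on chromosome X, and without genes of chromosomes X and Y the list had 4 calls. The list had 3 calls without KO_hM4D 1, 2 without KO_hM4D 4, 2 without WT_tdT 2 and 3 without WT_tdT 3. Without KO_hM4D 2 or KO_hM4D 3 the list had 5. With the Xist level as a covariate the list had 5 calls, Gfap not among them, and with the Y-linked level 6. It had 1 call without the mixed libraries and 0 against WT_tdT 1 alone or WT_tdT 2 and 3 alone, with medians of 0.13, 0.12 and 0.09.

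Side by side with the other groups, Gfap averaged 131 ± 30.3 CPM in KO_hM4D, 79.8 ± 15.2 CPM in KO_tdT, 191 ± 8.80 CPM in WT_hM4D and 76.1 ± 10 CPM in WT_tdT. C4b averaged 55.8 ± 17.3 CPM in KO_hM4D, 19.8 ± 2.22 CPM in KO_tdT, 84.2 ± 11.2 CPM in WT_hM4D and 22.6 ± 4.94 CPM in WT_tdT. For both genes the means of the hM4Di groups were above those of the tdTomato groups. The direct difference between the hM4Di groups did not pass, at -0.55 for Gfap (SE 0.15, adjusted p = 0.316 by edgeR) and -0.59 for C4b (SE 0.20, adjusted p = 0.319 by edgeR), KO_hM4D over WT_hM4D. The Gfap window is shown because its motif TTCNNNGAA, the core bound by STAT factors, lies close to the start of the gene whose level marks reactive astrocytes (RefSeq, GRCm38.p6 chr11:102897151-102897450, minus strand, motif in capitals).
Gfap: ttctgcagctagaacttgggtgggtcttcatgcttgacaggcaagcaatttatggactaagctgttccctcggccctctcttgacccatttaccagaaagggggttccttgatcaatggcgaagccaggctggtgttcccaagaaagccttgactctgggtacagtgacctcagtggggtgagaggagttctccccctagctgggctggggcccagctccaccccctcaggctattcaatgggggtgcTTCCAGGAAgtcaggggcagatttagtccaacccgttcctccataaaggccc
The motif was found on either strand in 1 of the 4 called members with a window, in 7 of the 29 tested members with a window, and in 8.30% of all windows.

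The list of astrocyte markers held 3 calls, with Gfap also counted among the reactive genes above. Of 30 astrocyte markers 3 rose (Fgfr3, Gfap and Gjb6) and 0 fell, beside 0.946% and 1.01% of all genes tested. The median log2 change was -0.01. Fgfr3, a fibroblast growth factor receptor gene of astrocytes, had 113, 115, 95.4 and 110 CPM in KO_hM4D 1 to 4, against 82.9, 73.7, 87.7 and 76.5 CPM in WT_tdT 1 to 4. The groups did not overlap, and the log2 change was 0.43 (SE 0.07, adjusted p = 0.0136 by edgeR), lost without KO_hM4D 2 (adjusted p = 0.0546 by edgeR). Gjb6, the gap junction protein connexin 30, averaged 47.0 ± 2.25 CPM in KO_hM4D and 30.0 ± 5.42 CPM in WT_tdT (SD, n = 4 each), a log2 change of 0.65 (SE 0.13, adjusted p = 0.0264 by edgeR). In bulk tissue more cells of a type and more RNA per cell cannot be told apart. The marker count was 1 without KO_hM4D 1, KO_hM4D 2, KO_hM4D 4, WT_tdT 2 or WT_tdT 3, and 2 without WT_tdT 1 or WT_tdT 4. With the Xist or the Y-linked level as a covariate it was 3, but with the Xist level Gfap was not among the 3. It was 0 against WT_tdT 1 alone, against WT_tdT 2 and 3, and without the mixed libraries.

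The lists nearest to the receptor and to astrocyte shape held 1 call, a share near the 1.95% of all genes tested. Of 42 genes of Gi signalling and cAMP 0 were called by edgeR, and 13 had an unadjusted p under 0.05. By DESeq2 1 was higher and 2 were lower, and the median was -0.01. The 2 of smallest p were Plcb1, a phospholipase (-0.20, SE 0.05, adjusted p = 0.0671 by edgeR), and Pde4a, a cyclic AMP phosphodiesterase (0.35, SE 0.11, adjusted p = 0.0924 by edgeR). Of 45 genes of astrocyte morphology and actin 1 fell, Nlgn1, with a median of -0.03 and 12 at an unadjusted p under 0.05. The actin gene Actg1 had 338, 333, 390 and 395 CPM in KO_hM4D 1 to 4, against 430, 432, 409 and 427 CPM in WT_tdT 1 to 4, a log2 change of -0.22 that did not pass (SE 0.06, adjusted p = 0.0722 by edgeR). Of 25 synaptogenic astrocyte genes edgeR called 0 and DESeq2 1, and 3 had an unadjusted p under 0.05, led by Wnt7b (0.39, SE 0.11) and Ptn (-0.20, SE 0.07).

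**Figure D3:**
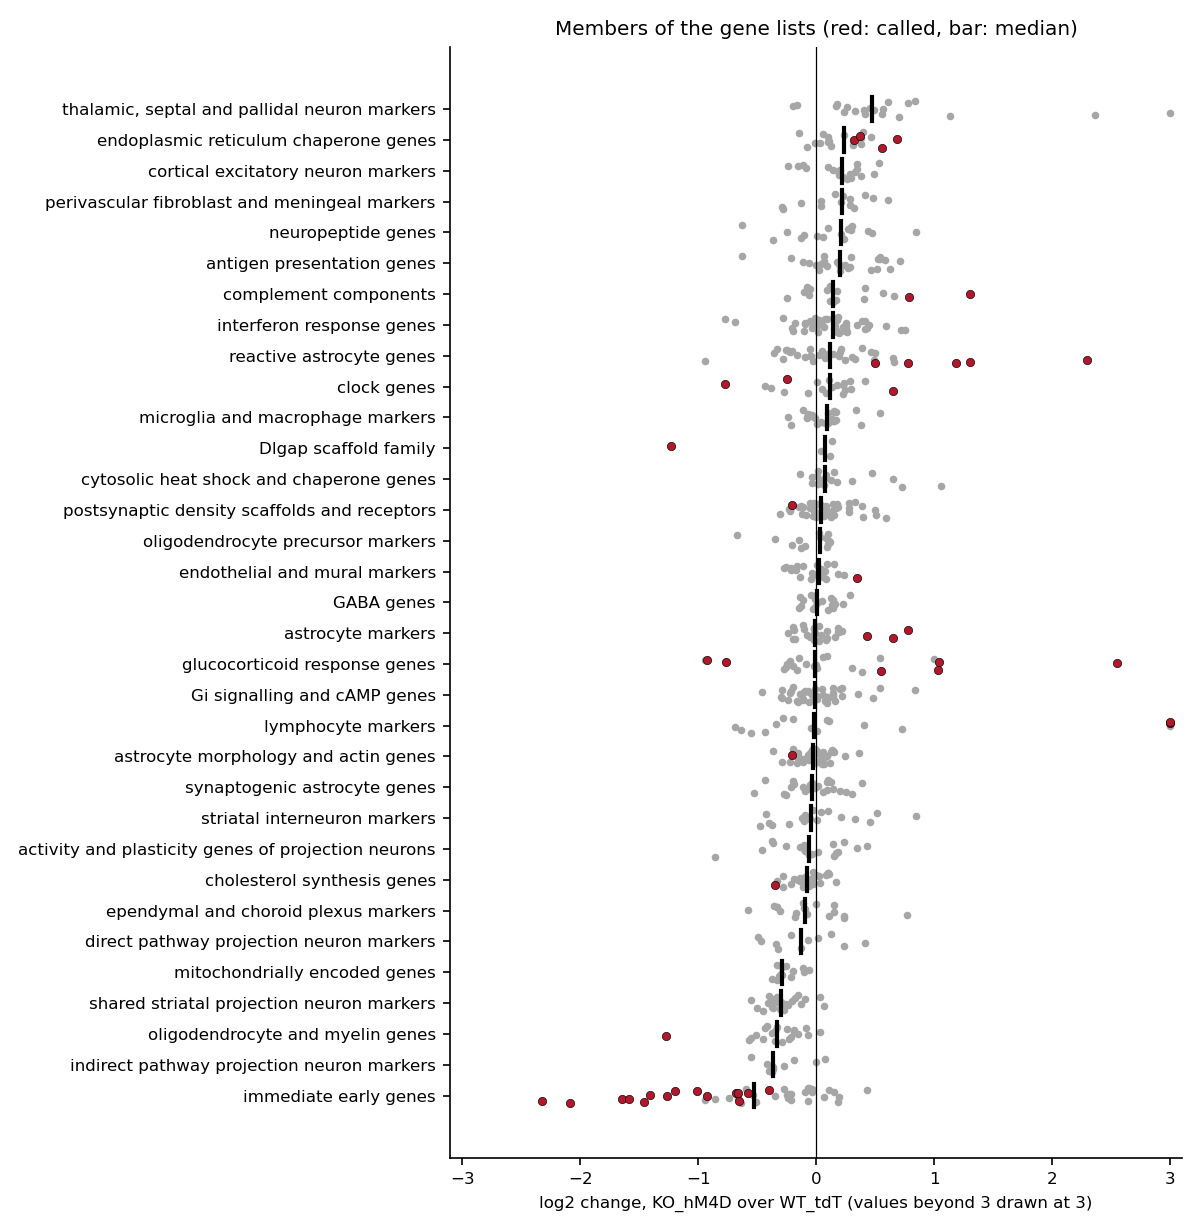
Log2 change of KO_hM4D over WT_tdT (horizontal axis) of the tested members of each gene list (rows, ordered by median), with called members in red, the others in grey and the list's median as a black bar. Immediate early genes stand at the bottom with a median of -0.52 and 15 called, and the lists of thalamic, septal and pallidal markers at the top with a median of 0.47 and 0 called.

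The list of endoplasmic reticulum chaperone genes held 4 calls, all of them higher in KO_hM4D. Such chaperones fold secreted and membrane proteins, and the list also holds the transcription factor gene Xbp1. Of 19 tested 4 rose (Xbp1, Dnajc3, Hspa5 and Sdf2l1) and 0 fell, beside 0.946% and 1.01% of all genes tested. A positive change was found for 16, and the median was 0.24. Hspa5, the central chaperone BiP, had 322, 353, 277 and 304 CPM in KO_hM4D 1 to 4, against 194, 214, 216 and 228 CPM in WT_tdT 1 to 4. The groups did not overlap, and the log2 change was 0.56 (SE 0.14, adjusted p = 0.0488 by edgeR). Xbp1, a transcription factor gene of the unfolded protein response, had 93.4, 98.2, 86.4 and 92.8 CPM in KO_hM4D 1 to 4, against 76.3, 68.8, 69.8 and 71.7 CPM in WT_tdT 1 to 4. It rose by 0.37 (SE 0.09, adjusted p = 0.0387 by edgeR), and Dnajc3, a co-chaperone of BiP, by 0.32 (SE 0.07, adjusted p = 0.0402 by edgeR).

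The count of this list was 3 without KO_hM4D 3 and 0 without each of the other 7 libraries. It was 1 with no filter on low counts and 7 with DESeq2. With the Xist level as a covariate it was 10, and with the Y-linked level 8. It was 0 against WT_tdT 1 alone, against WT_tdT 2 and 3, and without the mixed libraries, with medians of 0.28, 0.24 and 0.23. Hspa5 averaged 314 ± 32.1 CPM in KO_hM4D, 318 ± 78.8 CPM in KO_tdT, 320 ± 41.9 CPM in WT_hM4D and 213 ± 14.2 CPM in WT_tdT, so WT_tdT was the low group. The promoter windows of Hspa5 (chr2:34771840-34772139, plus strand) and Dnajc3 (chr14:118937682-118937981, plus strand) are shown because they hold the endoplasmic reticulum stress element, searched as CCAAT followed after 9 bases by CCACG, on both strands and printed in capitals (RefSeq, GRCm38.p6).
Hspa5: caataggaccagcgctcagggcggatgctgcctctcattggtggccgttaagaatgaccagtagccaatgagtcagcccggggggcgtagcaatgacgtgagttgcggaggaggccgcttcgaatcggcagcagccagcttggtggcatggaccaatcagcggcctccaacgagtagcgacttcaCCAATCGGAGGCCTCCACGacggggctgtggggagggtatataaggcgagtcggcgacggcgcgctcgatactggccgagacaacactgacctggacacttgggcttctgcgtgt
Dnajc3: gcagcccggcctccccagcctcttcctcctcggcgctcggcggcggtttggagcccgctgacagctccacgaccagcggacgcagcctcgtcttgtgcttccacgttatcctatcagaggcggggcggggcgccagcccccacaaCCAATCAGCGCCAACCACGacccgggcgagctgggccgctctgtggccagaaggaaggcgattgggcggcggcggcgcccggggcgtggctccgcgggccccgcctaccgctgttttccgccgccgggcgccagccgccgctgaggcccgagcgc
The element was in 2 of the 4 called members, in 7 of the 17 tested members with a window, and in 0.119% of all windows.

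Genes that glucocorticoids induce moved in both directions. Of 24 tested 4 rose (Plin4, Tsc22d3, Zbtb16 and Sult1a1) and 2 fell (Dusp1 and Arl4d), beside 0.946% and 1.01% of all genes tested. The median was -0.01. Plin4, a lipid droplet coat protein (GRCm38 chr17:56100591-56109803), had 28.0, 20.8, 17.5 and 17.7 CPM in KO_hM4D 1 to 4, against 7.26, 2.18, 3.55 and 1.28 CPM in WT_tdT 1 to 4. The groups did not overlap, and the log2 change of 2.55 (SE 0.55, adjusted p = 0.0310 by edgeR) was among the largest of all genes that rose. Tsc22d3, the leucine zipper protein GILZ, had 118, 112, 104 and 111 CPM in KO_hM4D 1 to 4, against 92.9, 69.3, 71.6 and 71.6 CPM in WT_tdT 1 to 4. WT_tdT 1 stood well above the other controls, and the log2 change was 0.55 (SE 0.12, adjusted p = 0.0327 by edgeR).

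Zbtb16, a zinc finger transcription factor gene, averaged 56.3 ± 11.1 CPM in KO_hM4D and 27.5 ± 5.07 CPM in WT_tdT (SD, n = 4 each), a log2 change of 1.03 (SE 0.23, adjusted p = 0.0366 by edgeR). Sult1a1, a sulfotransferase gene, rose by 1.04 (SE 0.24, adjusted p = 0.0385 by edgeR), and Arl4d, a small GTPase gene, fell by 0.77 on the log2 scale (SE 0.17, adjusted p = 0.0357 by edgeR). The mean log2 level of the list was 4.60, 4.52, 4.50 and 4.43 in KO_hM4D 1 to 4, against 4.64, 4.24, 4.30 and 4.23 in WT_tdT 1 to 4, so WT_tdT 1 lay above every KO_hM4D library. The count of members that rose was 4 with the Xist or the Y-linked level as a covariate. Without genes of chromosomes X and Y, which leaves out the X-linked Tsc22d3, it was 3. It was 4 without KO_hM4D 3 or WT_tdT 1 and 0 without each of the other 6 libraries. Set against WT_tdT 1 alone or WT_tdT 2 and 3, or without the mixed libraries, it was also 0. Among 20 clock genes 1 was called higher and 2 lower, beside 0.946% and 1.01% of all genes tested. The repressor Per2 rose by 0.66 (SE 0.15, adjusted p = 0.0387 by edgeR). Ciart, a circadian repressor, fell by 0.78 on the log2 scale (SE 0.16, adjusted p = 0.0251 by edgeR), as did the deubiquitinase gene Usp2 by 0.25 (SE 0.06, adjusted p = 0.0416 by edgeR).

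Among genes of synapses and neuron types 1 was called, a share near the 1.95% called over all genes tested. Of 45 postsynaptic density genes 1 fell, Nlgn1, a neuroligin that bridges the synaptic cleft. Nlgn1 had 168, 166, 168 and 164 CPM in KO_hM4D 1 to 4, against 197, 184, 192 and 193 CPM in WT_tdT 1 to 4. The groups were tight and did not overlap, at a log2 change of -0.20 (SE 0.04, adjusted p = 0.0251 by edgeR), but among the fits that left out 1 library the call was kept only without KO_hM4D 3. Of the projection neuron markers, 0 of 11 direct pathway, 0 of 10 indirect pathway and 0 of 25 shared markers were called, with medians of -0.13, -0.37 and -0.30 and 2, 0 and 6 at an unadjusted p under 0.05. DESeq2 called 0 of them. Of the shared markers 23 had a negative change.

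Tissue makeup varied between libraries. Of 20 markers of thalamic, septal and pallidal neurons edgeR called 0 and DESeq2 1, 5 had an unadjusted p under 0.05, 18 had a positive change and the median was 0.47. Their mean log2 level was 4.31, 3.14, 2.74 and 2.78 in KO_hM4D 1 to 4, against 2.63 to 2.81 in WT_tdT. KO_hM4D 1 stood apart, with 103 CPM of Prkcd and 12.9 CPM of Shox2, against at most 13.8 and 1.07 CPM in the other KO_hM4D libraries and 7.74 and 0.060 CPM in WT_tdT. Of 20 cortical excitatory neuron markers edgeR and DESeq2 called 0 and 1 had an unadjusted p under 0.05, with mean log2 levels of 5.78 to 6.30 in KO_hM4D and 5.61 to 6.17 in WT_tdT. The part of these differences in the gene results was not tested, and leaving out KO_hM4D 1 together with KO_tdT 3 and 4, the other libraries high in thalamic markers, gave 350 genes higher and 577 lower.

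Myelin genes held 1 call. Of 21 tested 20 had a negative change, with a median of -0.33, and Opalin, a glycoprotein of mature oligodendrocytes, fell. It had 15.6, 10.1, 12.8 and 13.7 CPM in KO_hM4D 1 to 4, against 30.0, 39.4, 27.4 and 29.5 CPM in WT_tdT 1 to 4. The groups did not overlap, and the log2 change was -1.27 (SE 0.29, adjusted p = 0.0387 by edgeR), a call lost without each single library of the 8. Cnp, a myelin enzyme gene, changed by -0.55 (SE 0.20, adjusted p = 0.146 by edgeR). All 13 mitochondrially encoded genes had a negative change (median -0.29, 0 called by edgeR or DESeq2, 3 at an unadjusted p under 0.05). Their mean log2 level was 7.32, 7.23, 6.80 and 6.72 in KO_hM4D 1 to 4, against 7.25, 7.29, 7.22 and 7.38 in WT_tdT 1 to 4, so KO_hM4D 3 and 4 were low and KO_hM4D 1 and 2 lay at the controls.

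Transcripts of antibody-producing cells were high in 2 libraries. Igkc, the constant region of the immunoglobulin kappa chain, had 0.101, 0.144, 17.6 and 20.03 CPM in KO_hM4D 1 to 4, against 0.038 to 0.112 CPM in WT_tdT. KO_hM4D 1 was within the range of the controls. Igkc and Jchain, which joins immunoglobulin units, were the 2 called of 16 lymphocyte markers tested, beside 1.95% of all genes tested. Their log2 changes were 6.74 (SE 1.52, adjusted p = 0.0371 by edgeR) and 5.01 (SE 1.24, adjusted p = 0.0491 by edgeR). For both genes KO_hM4D 3 and 4 were high and KO_hM4D 1 and 2 were near the controls. Microglia markers (26 tested, 3 at an unadjusted p under 0.05), interferon response genes (45 tested, 7) and antigen presentation genes (26 tested, 5) had 0 calls by edgeR and 1, 3 and 1 by DESeq2, and of the last 21 of 26 had a positive change, with a median of 0.20.

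Of the remaining lists, Flt1, a receptor of vascular endothelial growth factor, was the 1 call of 25 endothelial and mural markers (0.35, SE 0.09, adjusted p = 0.0491 by edgeR). Lss, which closes the sterol ring, was the 1 call of 26 cholesterol synthesis genes (-0.35, SE 0.08, adjusted p = 0.0387 by edgeR). Cytosolic heat shock genes had 0 of 18 called by edgeR and 4 by DESeq2, 5 at an unadjusted p under 0.05 and 15 with a positive change. The lists of GABA genes (20), neuropeptides (17), interneuron markers (18), oligodendrocyte precursors (14), ependymal and choroid plexus cells (18) and perivascular fibroblasts (14) had 0 calls by edgeR, with 1, 1, 3, 2, 1 and 2 members at an unadjusted p under 0.05. DESeq2 called 1 interneuron marker and 1 fibroblast gene among them.

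Among the largest changes, 4 were the Y-linked genes Ddx3y, Kdm5d, Eif2s3y and Uty, at log2 changes of -11.09, -10.42, -10.17 and -9.99. These follow the 2 WT_tdT libraries with Y-linked transcripts and the 1 mixed one, since Ddx3y had 0.019 CPM in WT_tdT 1 and at most 0.038 CPM in KO_hM4D. Others were outside the lists. Zbtb40, a zinc finger gene, had 19.5, 22.5, 16.0 and 18.9 CPM in KO_hM4D 1 to 4, against 9.81, 10.1, 9.49 and 11.0 CPM in WT_tdT 1 to 4. The groups lay well apart, with a log2 change of 0.93 (SE 0.15, adjusted p = 0.0142 by edgeR).

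Tekt4, a tektin of ciliary microtubules, rose by 1.31 (SE 0.22, adjusted p = 0.0155 by edgeR) at about 1 CPM, and Serinc2 by 1.07 (SE 0.25, adjusted p = 0.0387 by edgeR). Cys1, which encodes the ciliary protein cystin, rose by 0.94 (SE 0.17), Zfp366 by 0.87 (SE 0.15) and the gene model Gm42644 by 0.89 (SE 0.21), with adjusted p of 0.0227, 0.0184 and 0.0405 by edgeR. Ccno, a cyclin gene of multiciliated cells, fell by 1.155 on the log2 scale (SE 0.18, adjusted p = 0.0142 by edgeR). The gene model Gm10093 rose by 2.09 (SE 0.46, adjusted p = 0.0351 by edgeR), and its level was 1.30 ± 0.432 CPM in KO_hM4D, 1.52 ± 0.0881 CPM in KO_tdT, 0.085 ± 0.0473 CPM in WT_hM4D and 0.306 ± 0.283 CPM in WT_tdT (SD, n = 4 each). The means were higher in both knockout groups, though KO_hM4D 1 lay below WT_tdT 2 (0.684 and 0.717 CPM), and reads shared with near-identical copies could not be separated.

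Calls near Dlgap3 on chromosome 4 went both ways. Within 10 Mb on either side, 14 of 336 genes tested were called (4.17%, 8 higher and 6 lower, Dlgap3 not counted), against 1.60% of the 938 on the rest of the chromosome and 1.95% of all genes. Close to Dlgap3, Khdrbs1, an RNA-binding protein gene 2.47 Mb away, fell by 0.46 on the log2 scale (SE 0.08, adjusted p = 0.0182 by edgeR). Dcdc2b, 2.37 Mb away and under 1 CPM, fell by 1.30 (SE 0.27, adjusted p = 0.0266 by edgeR), and Zbtb8a, 2.12 Mb away, by 0.65 (SE 0.11, adjusted p = 0.0206 by edgeR). Azin2, 1.69 Mb away, rose by 0.28 (SE 0.07, adjusted p = 0.0479 by edgeR). Fam167b, 2.34 Mb away and under 1 CPM, rose by 1.18 (SE 0.29, adjusted p = 0.04996 by edgeR). Farther out, Mfsd2a, a lipid transporter gene of brain endothelium, rose by 0.54 (SE 0.11, adjusted p = 0.0264 by edgeR). Myom3 and Hnrnpr, 8.52 and 9.07 Mb away, were called lower, at log2 changes of -0.41 (SE 0.09) and -0.27 (SE 0.05). In KO_tdT over the same WT_tdT libraries, Khdrbs1 changed by -0.41, Dcdc2b by -1.87, Zbtb8a by -0.65 and Fam167b by 1.28. There Mfsd2a changed by 0.31, Azin2 by 0.07, Myom3 by 0.11 and Hnrnpr by -0.09. Of these Dcdc2b passed the test in KO_tdT (adjusted p = 0.0224 by edgeR) and the others did not. Zbtb40 and Serinc2, both higher in KO_hM4D, also lie in the window. The count of calls was 6 without KO_hM4D 1, 0 without KO_hM4D 2, 11 without KO_hM4D 3 and 1 without KO_hM4D 4. It was 5 without WT_tdT 1, 4 without WT_tdT 2 or 4, and 2 without WT_tdT 3. With the Xist level as a covariate it was 23, and with the Y-linked level 25. Against WT_tdT 1 alone or WT_tdT 2 and 3 it was 0, and without the mixed libraries 2.

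**Figure D4:**
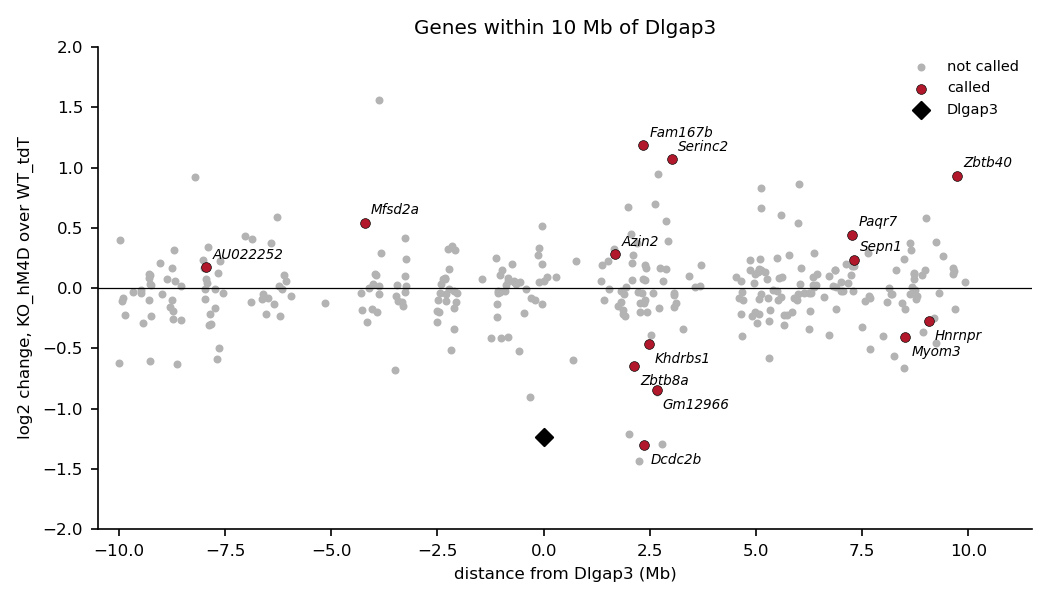
Log2 change of KO_hM4D over WT_tdT (vertical axis) against distance from Dlgap3 in Mb (horizontal axis) for the 336 other genes tested within 10 Mb, with the 14 called genes in red and Dlgap3 as a black diamond at -1.23. The called genes lie on both sides of 0, with Fam167b, Serinc2 and Zbtb40 highest and Dcdc2b lowest.

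**Figure D5:**
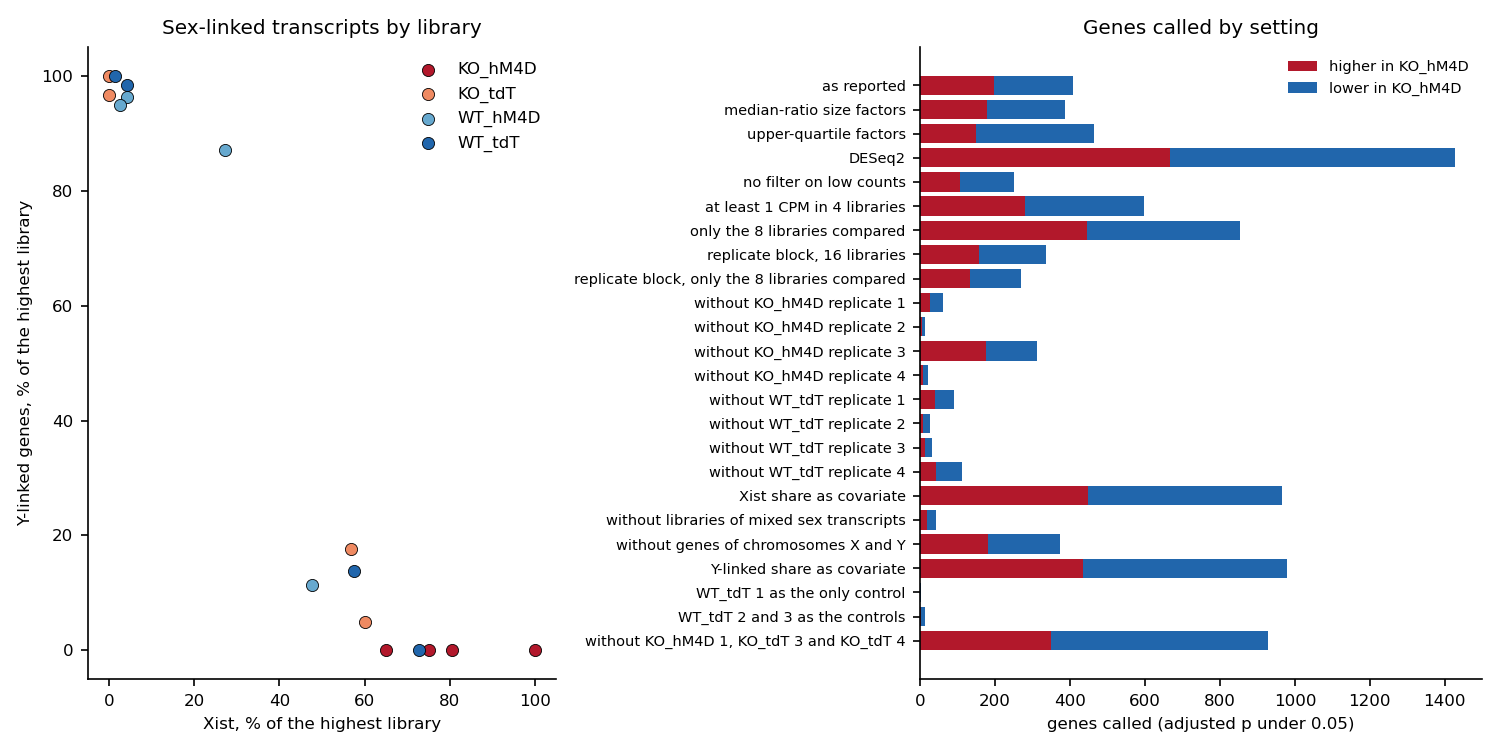
Left, Xist (horizontal axis) against the sum of Y-linked genes (vertical axis), each as a percent of the highest library, for the 16 libraries by group. Right, genes called higher (red) and lower (blue) in KO_hM4D over WT_tdT under each setting. All 4 KO_hM4D libraries and WT_tdT 1 sit at the lower right, and counts run between 1 with WT_tdT 1 as the only control and 1428 with DESeq2.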

How the data were processed

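Striatal RNA was extracted on columns, depleted of ribosomal RNA and sequenced as stranded libraries, per the labels' protocols. Reads were demultiplexed with bcl2fastq 2.17, aligned with STAR and counted with HTSeq on GRCm38 (mm10), per the submitters' processing notes. Other versions, the annotation release and the strand setting were not given in the sources used here, so overlapping genes on opposite strands are uncertain. The authors deposited raw counts for 48795 genes and 16 libraries. Groups come from the titles; for 3 wild-type hM4Di libraries 1 label field names another group. Nothing in the counts pointed to duplicated libraries.

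Counts were filtered with filterByExpr (20825 genes kept), scaled with TMM factors and fitted with edgeR 4.0.16 in R 4.3.3, with a coefficient per group over all 16 libraries (common dispersion 0.0162, 12 residual degrees of freedom), and tested by two-sided quasi-likelihood F tests. P-values were adjusted by Benjamini-Hochberg over all genes tested, and a call is an adjusted p under 0.05. Levels are CPM, and list levels are means of log2 CPM with a prior count of 2. SE is the log2 change divided by the square root of F, with a median of 0.12. The pipeline was tested on simulated data. Coordinates and gene types come from GENCODE M21. Alternatives were median-ratio and upper-quartile scaling, DESeq2 1.42.0, other filters, fewer libraries, a replicate block and sex-transcript covariates. P-values measure the spread between the libraries.

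Genes named were Dlgap3 and Chrm4, the 15 largest called changes in each direction with a mean of at least 1 CPM, up to 25 called list members, and the 2 members of smallest p in each list. Gadd45g, Hspa5, Sdf2l1, Usp2, Srsf5 and the genes near Dlgap3 other than Zbtb40 and Serinc2 were named outside this rule, after their values were seen. The members and gene lists were chosen with earlier results of these data known.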

Additional observations from a re-analysis of the deposited data

Results flagged for a closer look

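In 17 of 254 groups of 4 values examined, 1 library stood apart from the other 3 by Dixon's gap criterion, which chance meets in about 1 in 20 groups. The cause was not tested for any of them.

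KO_hM4D 1 stood high for genes of neurons outside the striatum, with 12.9 CPM of Shox2 (others 0.112 to 1.07 CPM) and 103 CPM of Prkcd (others 7.97 to 13.8 CPM). It was also high for Ebf1 at 14.5 CPM, C1ql1 at 4.73 CPM and Pnoc at 3.18 CPM, and for the mean log2 level of interneuron markers at 4.75.

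KO_hM4D 2 was low for C4b at 29.9 CPM (others 63.3 to 66.5 CPM) and for the mean log2 level of microglia and macrophage markers at 3.91 (others 4.10 to 4.13). It was high for the heat shock gene Hspa1a at 7.34 CPM and for the mean log2 level of postsynaptic density genes at 7.07. KO_hM4D 3 was high for Cyr61 at 3.48 CPM, Btg2 at 11.2 CPM and Ptgds, a prostaglandin synthase gene of the meninges, at 399.5 CPM (others 324 to 332 CPM).

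Among controls, WT_tdT 1 was high for Tsc22d3 at 92.9 CPM (others 69.3 to 71.6 CPM) and for the mean log2 level of glucocorticoid response genes at 4.64. It was low for that of endoplasmic reticulum chaperones at 5.69 (others 5.81 to 5.83). WT_tdT 4 was high for Hspb1 at 2.90 CPM.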

How the results depend on the processing

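The counts of genes called higher and lower (197 and 210) changed with most settings. DESeq2 gave 667 and 761, no filter on low counts 106 and 143, and a filter of at least 1 CPM in 4 libraries 281 and 315. Upper-quartile factors gave 149 and 316, and median-ratio size factors 179 and 207. With only the 8 libraries compared the counts were 446 and 408. Leaving out 1 library gave 5 to 175 higher and 8 to 136 lower, of which 8 genes were shared by all 8 fits, and 122 of the 407 calls were made in 0 of them. With the Xist share as a covariate the counts were 449 and 517, without the libraries of mixed sex transcripts 18 and 24, and without genes of chromosomes X and Y 182 and 190. Settings added after seeing the data gave 435 and 544 with the Y-linked share as a covariate, 0 and 1 with WT_tdT 1 as the only control, 2 and 11 with WT_tdT 2 and 3 as controls, and 350 and 577 without KO_hM4D 1, KO_tdT 3 and KO_tdT 4. With WT_tdT 1 as the only control, a fit that assumes the lone library to vary like the other groups, the log2 change reversed for Uty (0.33), Eif2s3y (3.13) and Ptn (0.03). The cause of these changes was not tested. Some settings also leave fewer libraries or genes, and the part of that in the counts was not tested either.

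Replicate numbers did not pair the samples: correlations of deviations of same-numbered libraries were 0.10, -0.06, -0.09 and 0.004. A fit with the replicate number as a block gave 156 higher and 179 lower over 16 libraries, and 133 and 135 over the 8 compared. Depth was high in all libraries, and each group held 4 libraries. What limited the precision was not tested.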

Other observations

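Beyond the lists, further calls shared a symbol family or a kind of product, and these groups were put together after their values were seen. Of 317 solute carrier (Slc) genes tested 9 were called higher and 0 lower, with a median log2 change of 0.02, beside 0.946% of all genes tested called higher and 1.01% lower. Slc45a4 had 53.4, 58.3, 50.0 and 57.2 CPM in KO_hM4D 1 to 4, against 39.5, 39.2, 40.4 and 38.1 CPM in WT_tdT 1 to 4, a log2 change of 0.48 (SE 0.08, adjusted p = 0.0142 by edgeR). The neutral amino acid transporter gene Slc38a2 and the inositol transporter gene Slc5a3, both induced by osmotic stress in other settings, were among the 9. Slc45a4 was called in 6 of the 8 fits that left out 1 library, and the other members in at most 3.

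Srsf5, an SR protein that takes part in splice site choice, had 63.0, 58.7, 75.9 and 67.1 CPM in KO_hM4D 1 to 4, against 113, 125, 125 and 103 CPM in WT_tdT 1 to 4. The groups lay well apart, at a log2 change of -0.82 (SE 0.12, adjusted p = 0.00874 by edgeR). Its level was 89.3 ± 18.3 CPM in KO_tdT and 86.2 ± 5.18 CPM in WT_hM4D (SD, n = 4 each), between the groups compared. Srsf5 was the 1 call of 11 Srsf genes tested, of which 4 had a negative change, with a median of 0.05, the other sign from Srsf5. Among the Hnrnp genes 2 of 20 were called, Hnrnpdl and Hnrnpr, both lower, beside 1.01% of all genes tested called lower. Of these 20 genes 17 had a negative change, with a median of -0.05.

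The immunoglobulin heavy chain gene Ighg2b had 0.044, 0.029, 10.9 and 26.1 CPM in KO_hM4D 1 to 4, against 0 to 0.057 CPM in WT_tdT, so it was high in the same 2 libraries as Igkc.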
